A study of Sus scrofa with 36 samples.

Results

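The cell cycle and proliferation genes described here are 38 genes named in a list that covers the replication of DNA, the cyclins and cyclin-dependent kinases, the spindle and the transcription factors of dividing cells. Members were taken by gene symbol. Of the 38 members, 33 were matched to 1 of the 31907 gene identifiers of the count tables. MKI67, AURKA, RRM2, CCNA2 and PCNA were not matched and are not analysed here. MCM5 was listed at 0 in all 36 libraries and was not tested. The other 32 members passed the filter on low counts in a fit of 15356 genes, with their counts running from 12 to 93 per library for FOXM1 and from 1718 to 3071 for MCM6.

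A dividing cell copies its DNA in S phase and separates the copies in mitosis, and each step is driven by cyclins that switch on a cyclin-dependent kinase. D-type cyclins with CDK4 and E-type cyclins with CDK2 lead the cell into S phase, the MCM helicase opens the origins of replication, and CDK1 with B-type cyclins starts mitosis. In the cerebellum after birth, division is known above all from the external granule layer, where granule cell progenitors multiply under Sonic hedgehog before they settle as granule neurons.

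RNA was sequenced from the cerebellum of 36 male and female piglets of a cross of Duroc, Yorkshire and Danish landrace, born in 6 litters. Piglets of normal birth weight (NBW) and piglets with intrauterine growth restriction (IUGR, a low birth weight with an altered shape of the head) received from 3 days of age a formula with vegetable oil (VEG) or with bovine milk fat (MILK) as its fat, for about 3 weeks. All piglets were fed formula and none is a sow-fed control. The labels gave 9 piglets to each of MILK-IUGR, VEG-IUGR, MILK-NBW and VEG-NBW, each piglet being a separate animal. Each group held 5 females and 4 males, except MILK-NBW with 3 females and 6 males. Litter is not in the labels, so litter mates could not be matched.

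The total count on genes was 7936202 to 23027502 per library, and the unassigned share, reads given to no gene, was 26.73% to 30.48% in 33 libraries. It was 43.62% in piglet 202 of VEG-NBW, 64.31% in piglet 210 of VEG-IUGR and 31.52% in piglet 213 of MILK-NBW. The study left out 1 library from each of these groups for low RNA integrity without naming it. The library with the highest unassigned share of each was left out here, in every value unless all 36 are named, and may not be the one the study dropped. Many members were low in them. In piglet 210, 24 of 32 members had a count of 0 and 27 lay below all other VEG-IUGR piglets. CCND1 was at 439 CPM there (counts scaled to a common library size, with TMM factors) when scaled over all 36 libraries. The rest of its group had 40.4 to 68.7 when scaled over the 33. In piglets 202 and 213, 14 and 16 of 32 members lay below all others of their group. Some members stood above all others of the group instead, 5 in piglet 202, 3 in piglet 210 and 5 in piglet 213. Of the cerebellar markers, all 6 of granule neurons and all 6 of Purkinje cells were measured.

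A score, the mean over the 32 members of log2 CPM standardised across the 33 piglets, summarised each animal in SD units. It ran in VEG-NBW from -0.94 over a median of -0.064 to 1.40, in VEG-IUGR from -0.77 over 0.48 to 1.37, in MILK-NBW from -0.79 over -0.30 to 0.56, and in MILK-IUGR from -1.05 over -0.38 to 0.96. VEG-IUGR had the highest mean at 0.40 ± 0.72 (SD, n = 8), and the others were at -0.022 ± 0.77 (n = 8), -0.13 ± 0.47 (n = 8) and -0.22 ± 0.62 (n = 9). The groups overlapped throughout, with SDs of 0.47 to 0.77 within them. With all 36 libraries, and the standardising over all 36, VEG-IUGR had the lowest mean instead, at -0.23 ± 1.51 (n = 9) with piglet 210 at -4.21, and the others had 0.067 to 0.090. Females and males had means of -0.042 ± 0.73 (n = 16) and 0.039 ± 0.63 (n = 17). The score of the 17 mitotic members and that of the 6 replication members had the same highest group, with means in VEG-IUGR of 0.48 ± 0.86 and 0.42 ± 0.81.

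**Figure D1:**
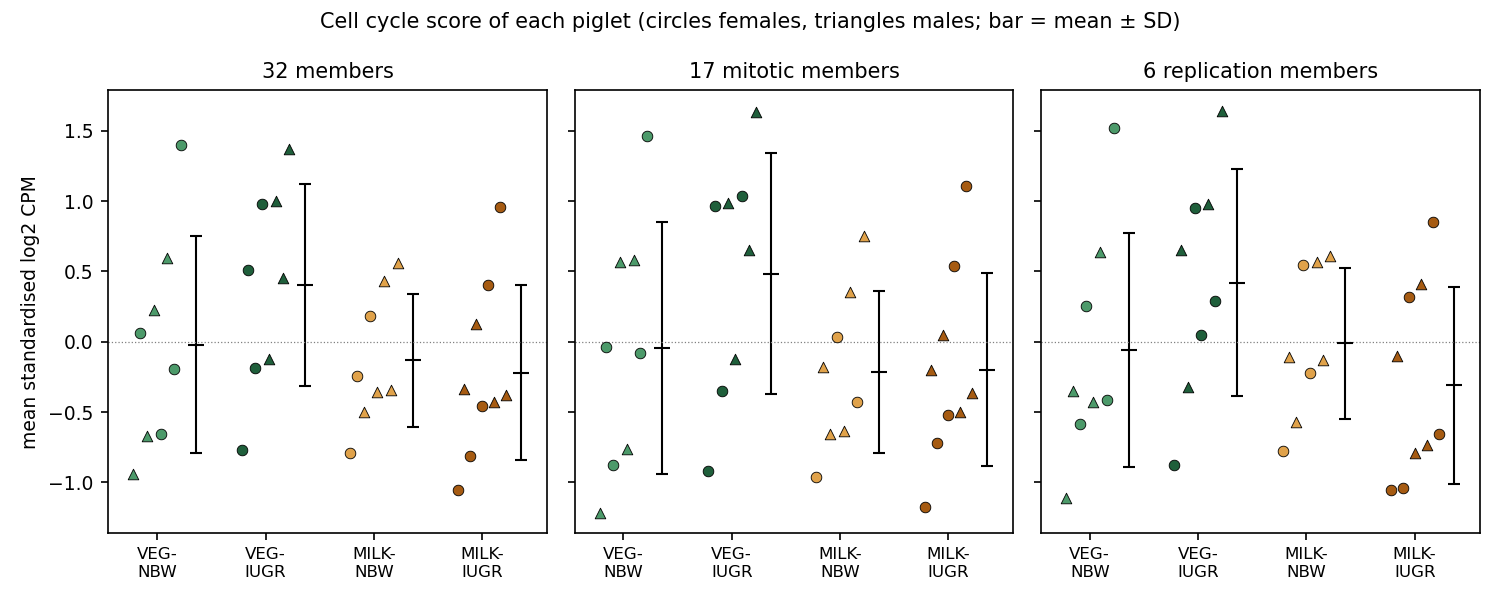
Mean standardised log2 CPM of each piglet (SD units) over the 32 members, the 17 mitotic members and the 6 replication members, by group; circles are females, triangles males, and the bar beside each group is its mean ± SD. The VEG-IUGR mean of 0.40 over all members is the highest, and the ranges of all 4 groups overlap.

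Diet was compared first, as MILK minus VEG over both birth weights with sex as a covariate. Most members were a little lower in MILK piglets, but none of these differences passed once the p-values were adjusted over all genes. Of the 32 members, 29 had a log2 fold change below 0, where 52% of all 15356 genes did, and the median over the members was -0.11 against -0.0035 over all genes. Markers of oligodendrocytes, astrocytes, endothelium and Purkinje cells lay on the other side, with 18 of 18 above 0. These lists were named once their values were known. Most granule neuron markers lay below 0, as did the red cell marker HBB, and the progenitor markers were divided. No member was called by edgeR's quasi-likelihood test at a Benjamini-Hochberg adjusted p under 0.05, and 0% of all genes were. At an unadjusted p under 0.05 there were 4 members, all of them lower in MILK, where 4.26% of all genes passed in either direction and 2.31% passed as lower.

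The 4 members were CDC20, MCM2, PLK1 and TOP2A, which span replication, the entry into mitosis and its end. CDC20 (ENSSSCG00000003949, chromosome 6 from 167886266 to 167890587 in Sscrofa11.1, RefSeq span), the activator of the ligase that ends mitosis, was at 11.7 to 20.8 CPM with a median of 15.0 in VEG-NBW and at 13.6 to 24.5 with a median of 20.5 in VEG-IUGR. In MILK-NBW it was at 12.8 to 18.9 with a median of 15.8, and in MILK-IUGR at 11.6 to 19.4 with a median of 15.2. Only VEG-IUGR stood higher, and its lowest piglet was still inside the range of every other group. The log2 fold change for diet was -0.21 (SE 0.089, edgeR adjusted p = 0.985).

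TOP2A (ENSSSCG00000017473, chromosome 12 from 22001300 to 22028452), the topoisomerase that untangles copied chromosomes, had 805 to 2199 counts per library. It was at 49.7 to 104 CPM (median 73.9) in VEG-NBW, 59.8 to 96.5 (86.3) in VEG-IUGR, 57.2 to 90.4 (65.4) in MILK-NBW and 61.0 to 85.4 (68.6) in MILK-IUGR. Both MILK groups lay inside the range of VEG-NBW. Its diet difference was -0.18 (SE 0.086, edgeR adjusted p = 0.985), or 11.5% lower in MILK with a 95% interval from -0.35 to -0.0067 on the log2 scale.

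MCM2 (ENSSSCG00000011624, chromosome 13 from 72630378 to 72651270), a subunit of the replicative helicase, had a log2 fold change of -0.16 (SE 0.072, edgeR adjusted p = 0.985) and PLK1, a mitotic kinase, one of -0.16 (SE 0.076). CDK1 (ENSSSCG00000010214, chromosome 14 from 64233945 to 64255290), the kinase that starts mitosis, was at 6.92 to 12.4 CPM in VEG-NBW, 6.76 to 14.5 in VEG-IUGR, 6.93 to 10.53 in MILK-NBW and 7.50 to 12.02 in MILK-IUGR. All 4 groups overlapped, and the diet difference of -0.17 (SE 0.090, edgeR adjusted p = 0.985) had a 95% interval from -0.35 to 0.0026.

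The D-type cyclins, which pass growth signals to the G1 kinases, were nearly level. CCND1 had group means of 58.5 ± 9.5 (SD, n = 8) CPM in VEG-NBW, 57.9 ± 9.0 (n = 8) in VEG-IUGR, 57.7 ± 6.8 (n = 8) in MILK-NBW and 54.2 ± 6.1 (n = 9) in MILK-IUGR. CCND2 had 34.7 ± 3.5, 34.8 ± 4.3, 34.1 ± 2.8 and 33.6 ± 3.0 CPM in the same order. Their diet differences were -0.057 (SE 0.068, 95% interval from -0.19 to 0.076) and -0.040 (SE 0.051, interval from -0.14 to 0.059). Both intervals leave room for a difference in either direction, and that of CCND1 holds the TOP2A value of -0.18.

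By role, the lower side in MILK was complete among the mitotic members. These genes rose and fell together between piglets, so their signs are not independent observations. The median Pearson r was 0.57 among pairs of mitotic cyclins, kinases and checkpoint genes and 0.75 among pairs of chromosome and spindle genes. All 10 mitotic cyclins, kinases and checkpoint genes had a diet log2 fold change below 0, with a median of -0.14, as had all 7 chromosome and spindle genes, also with a median of -0.14, and the 3 transcription factors FOXM1, MYBL2 and E2F1, with a median of -0.16. Of the 6 replication members, 5 were below 0 with a median of -0.085. The exception was TYMS, the thymidylate synthase that supplies a building block of DNA, at 0.093 (SE 0.11). Of the 6 cyclins and kinases of G1 and S, 4 were below 0 with a median of -0.048. FOXM1, a transcription factor of mitotic genes, had the most negative diet value among the members at -0.30 (SE 0.16, edgeR adjusted p = 0.985) and also the lowest counts.

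**Figure D2:**
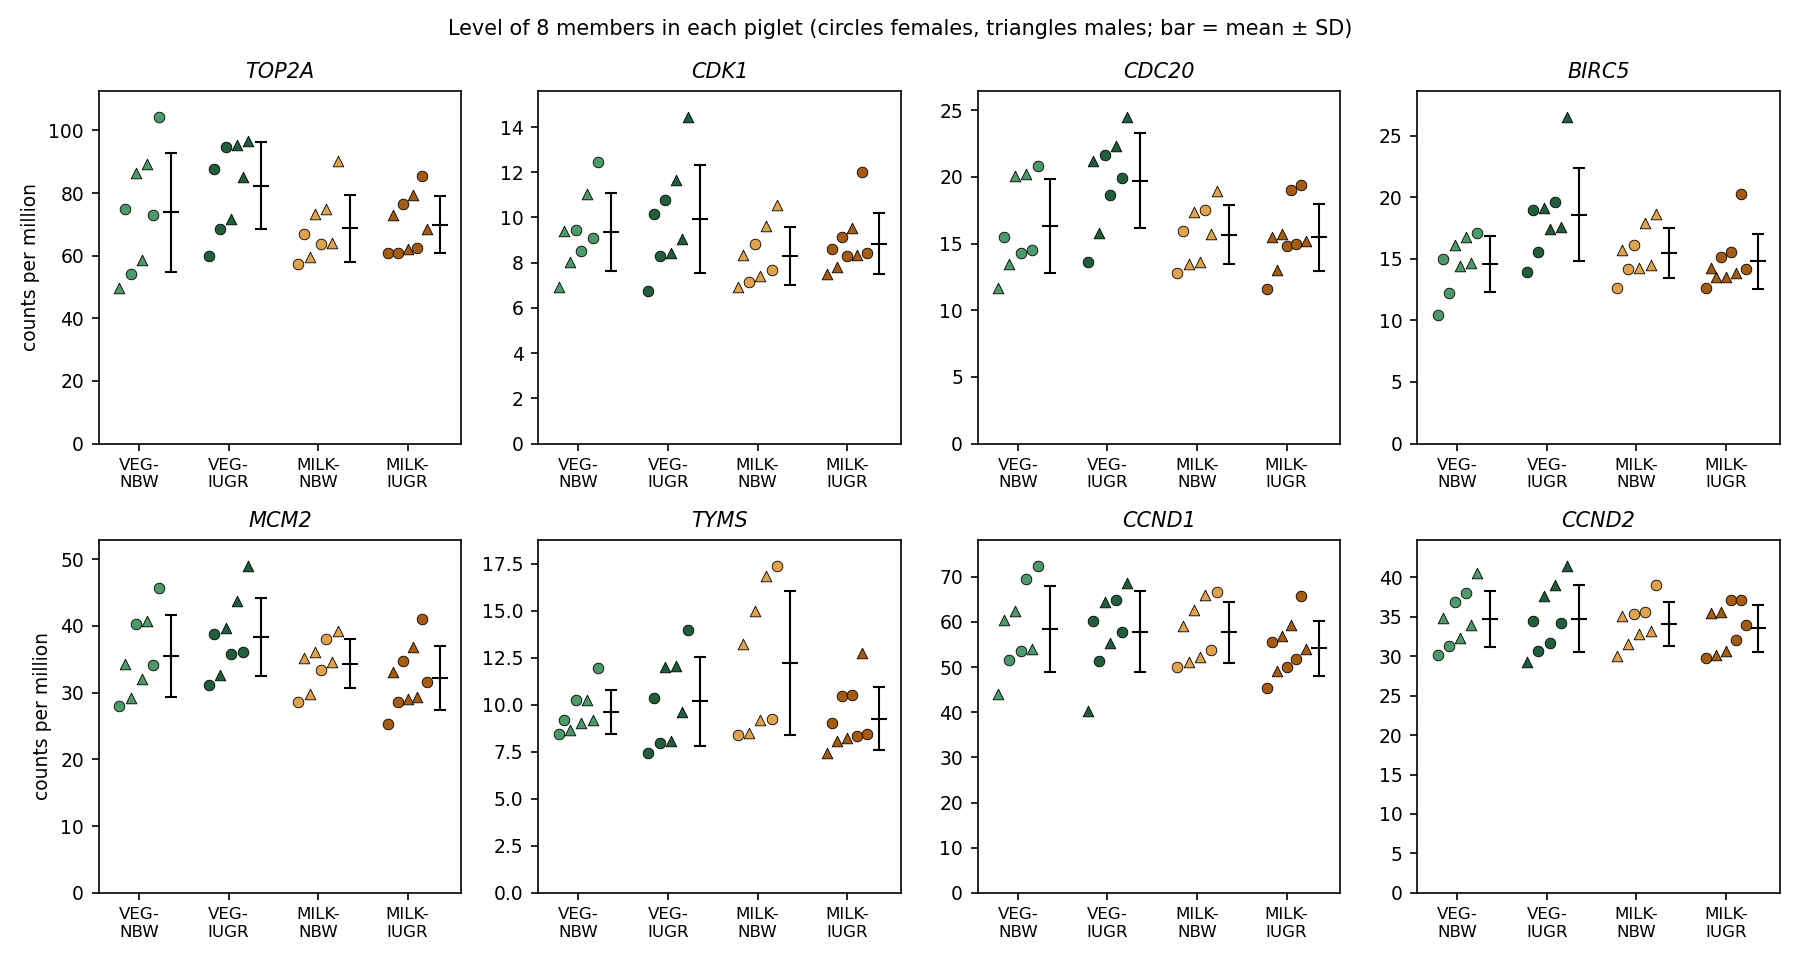
CPM of 8 members in each of the 33 piglets by group; circles are females, triangles males, and the bar beside each group is its mean ± SD. CDC20 and BIRC5 have their highest median in VEG-IUGR, CCND1 and CCND2 are nearly level, and 4 of 8 MILK-NBW piglets stand above 13 CPM in TYMS.

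Other cell cycle genes, taken from 4 lists of companions, were mostly on the same side for diet, where 52% of all genes were below 0. In the list of other mitotic genes, 28 of 30 tested were lower in MILK with a median of -0.12, and 7 had an unadjusted p under 0.05, all lower. Of the genes of origin licensing and firing, 14 of 17 were lower with a median of -0.061 and 1 passed unadjusted. Of the genes of the replication fork, 14 of 17 were lower with a median of -0.053 and none passed unadjusted. The last list held inhibitors of cyclin-dependent kinases and pocket proteins, which hold the cycle back. It also held CCND3, CDK6 and several E2F and LIN genes, so its values are not those of such brakes alone. Of its genes, 14 of 21 were lower with a median of -0.020. This mixed list lay nearest to all genes, whose median was -0.0035. Of all genes, 4.26% passed unadjusted and 2.31% passed as lower. None of these 85 genes was called by edgeR.

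The gene with the smallest unadjusted p for diet among all 15356 was one of these companions, ECT2. The lists were chosen with earlier results of these data known, so that rank adds no separate evidence on diet. ECT2 (ENSSSCG00000035746, chromosome 13 from 111248215 to 111310746) activates the small GTPase RhoA when a cell divides in 2. It was at 13.8 to 19.1 CPM (median 17.5) in VEG-NBW, 14.3 to 22.1 (19.6) in VEG-IUGR, 12.8 to 18.3 (14.9) in MILK-NBW and 13.6 to 17.7 (14.6) in MILK-IUGR. The MILK medians were both below the VEG medians, while all groups overlapped. Its log2 fold change was -0.23 (SE 0.058, edgeR adjusted p = 0.985). The mitotic genes PBK at -0.23 (SE 0.080) and DLGAP5 at -0.27 (SE 0.095) followed it among the companions.

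Within IUGR piglets, the question was whether the fat source mattered in growth-restricted animals. Here nearly all members were lower in MILK: 31 of 32 had a log2 fold change below 0 in MILK-IUGR against VEG-IUGR, where 50.5% of all genes did, with a median of -0.14 against -0.00098. Of these, 6 passed an unadjusted p of 0.05, all lower, where 3.9% of all genes passed in either direction and 2.03% as lower. None was called by edgeR (0% of all genes). The 6 members were BIRC5, CDC20, MCM2, UBE2C, MCM3 and MCM4. The ranges of the groups overlapped for all 32 members.

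BIRC5 (survivin, ENSSSCG00000040486, chromosome 12 from 3747276 to 3755214), a part of the complex that corrects the attachment of chromosomes to the spindle, was at 13.9 to 26.5 CPM with a median of 18.3 in VEG-IUGR and at 12.6 to 20.2 with a median of 14.1 in MILK-IUGR. All but 1 of the 9 MILK-IUGR piglets, piglet 232 at 20.2, were at or below 15.6, and 6 of 8 VEG-IUGR piglets were above 17. The difference was -0.32 (SE 0.11, edgeR adjusted p = 0.996). CDC20 followed at -0.35 (SE 0.12, edgeR adjusted p = 0.996).

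MCM2 was at 31.1 to 49.0 CPM (median 37.4) in VEG-IUGR and 25.4 to 41.0 (31.6) in MILK-IUGR, with a difference of -0.25 (SE 0.10, edgeR adjusted p = 0.996). UBE2C, the ubiquitin-conjugating enzyme that works with CDC20, had -0.30 (SE 0.13), MCM3 -0.26 (SE 0.12) and MCM4 -0.17 (SE 0.082), each past the unadjusted threshold. All 6 replication members were below 0 with a median of -0.15, as were all 17 mitotic members with a median of -0.17. TOP2A had -0.23 (SE 0.12, edgeR adjusted p = 0.996), CDK1 -0.17 (SE 0.13), CCND1 -0.096 (SE 0.096) and CCND2 -0.052 (SE 0.072). The member not below 0 was CCNE1, a cyclin of the step into S phase, at 0.0010 (SE 0.090).

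Among the companions in this contrast, 28 of 30 other mitotic genes were lower with a median of -0.16 and 6 unadjusted passes. The counts were 11 of 17 for the replication fork with 4 passes and 9 of 17 for origin licensing with none. The mixed list with the inhibitors had 13 of 21 with none. Of all genes, 50.5% were below 0, 3.9% passed in either direction and 2.03% passed as lower. The lists other than the mitotic one lay nearer to the share of all genes below 0. ECT2 had -0.26 (SE 0.082), TK1, the thymidine kinase of dividing cells, -0.35 (SE 0.13) and POLD1, a subunit of a replicative polymerase, -0.24 (SE 0.089).

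The counts of members past the unadjusted threshold moved with single piglets. With each of the 33 libraries left out in turn, 30 to 32 members stayed below 0 in MILK-IUGR against VEG-IUGR and the median ran from -0.20 to -0.10, but the members at an unadjusted p under 0.05 ran from 3 to 10. There were 3 without VEG-IUGR piglet 201, 211 or 223 or MILK-IUGR piglet 207, and 10 without MILK-IUGR piglet 232, the MILK-IUGR library with the highest share of unassigned reads at 29.75%. For diet, 29 or 30 members stayed below 0 and the median ran from -0.14 to -0.081. The 4 nominal members became 1 without piglet 201, 204, 205, 222, 228 or 235, 2 without 207, 208, 211, 218, 219, 223, 226 or 233, 7 without 215, 227 or 232, and 9 without 216. These refits were added after the values were seen.

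Within NBW piglets the members were divided. In MILK-NBW against VEG-NBW, 21 of 32 members were below 0, where 49.8% of all genes were, with a median of -0.039. The member at an unadjusted p under 0.05 was TYMS, where 6.67% of all genes passed, and edgeR called none (0% of all genes). With voom TYMS did not pass and 4 members did, all lower in MILK-NBW (KIF11, MCM6, CDK1 and CCNE2). In a fit of these 2 groups alone MCM6 passed, also lower, and TYMS did not, and with all 36 libraries no member passed. TYMS (ENSSSCG00000040678, chromosome 6 from 105642730 to 105660279) was at 8.43 to 11.96 CPM (median 9.20) in VEG-NBW, 7.41 to 13.995 (10.002) in VEG-IUGR, 8.39 to 17.4 (11.2) in MILK-NBW and 7.45 to 12.8 (8.47) in MILK-IUGR. In MILK-NBW, TYMS had 4 piglets at 8.39 to 9.23 CPM and 4 at 13.2 to 17.4, with none between. The difference was 0.34 (SE 0.16, edgeR adjusted p = 0.735). MCM6 had -0.14 (SE 0.071, edgeR adjusted p = 0.738) and CCNE2 -0.22 (SE 0.12), while TOP2A had -0.12 (SE 0.13), CDK1 -0.18 (SE 0.13), CCND1 -0.015 (SE 0.099) and CCND2 -0.028 (SE 0.074). The companions with the smallest p were ECT2 at -0.20 (SE 0.085), GMNN at -0.18 (SE 0.080) and RPA3 at -0.18 (SE 0.079).

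**Figure D3:**
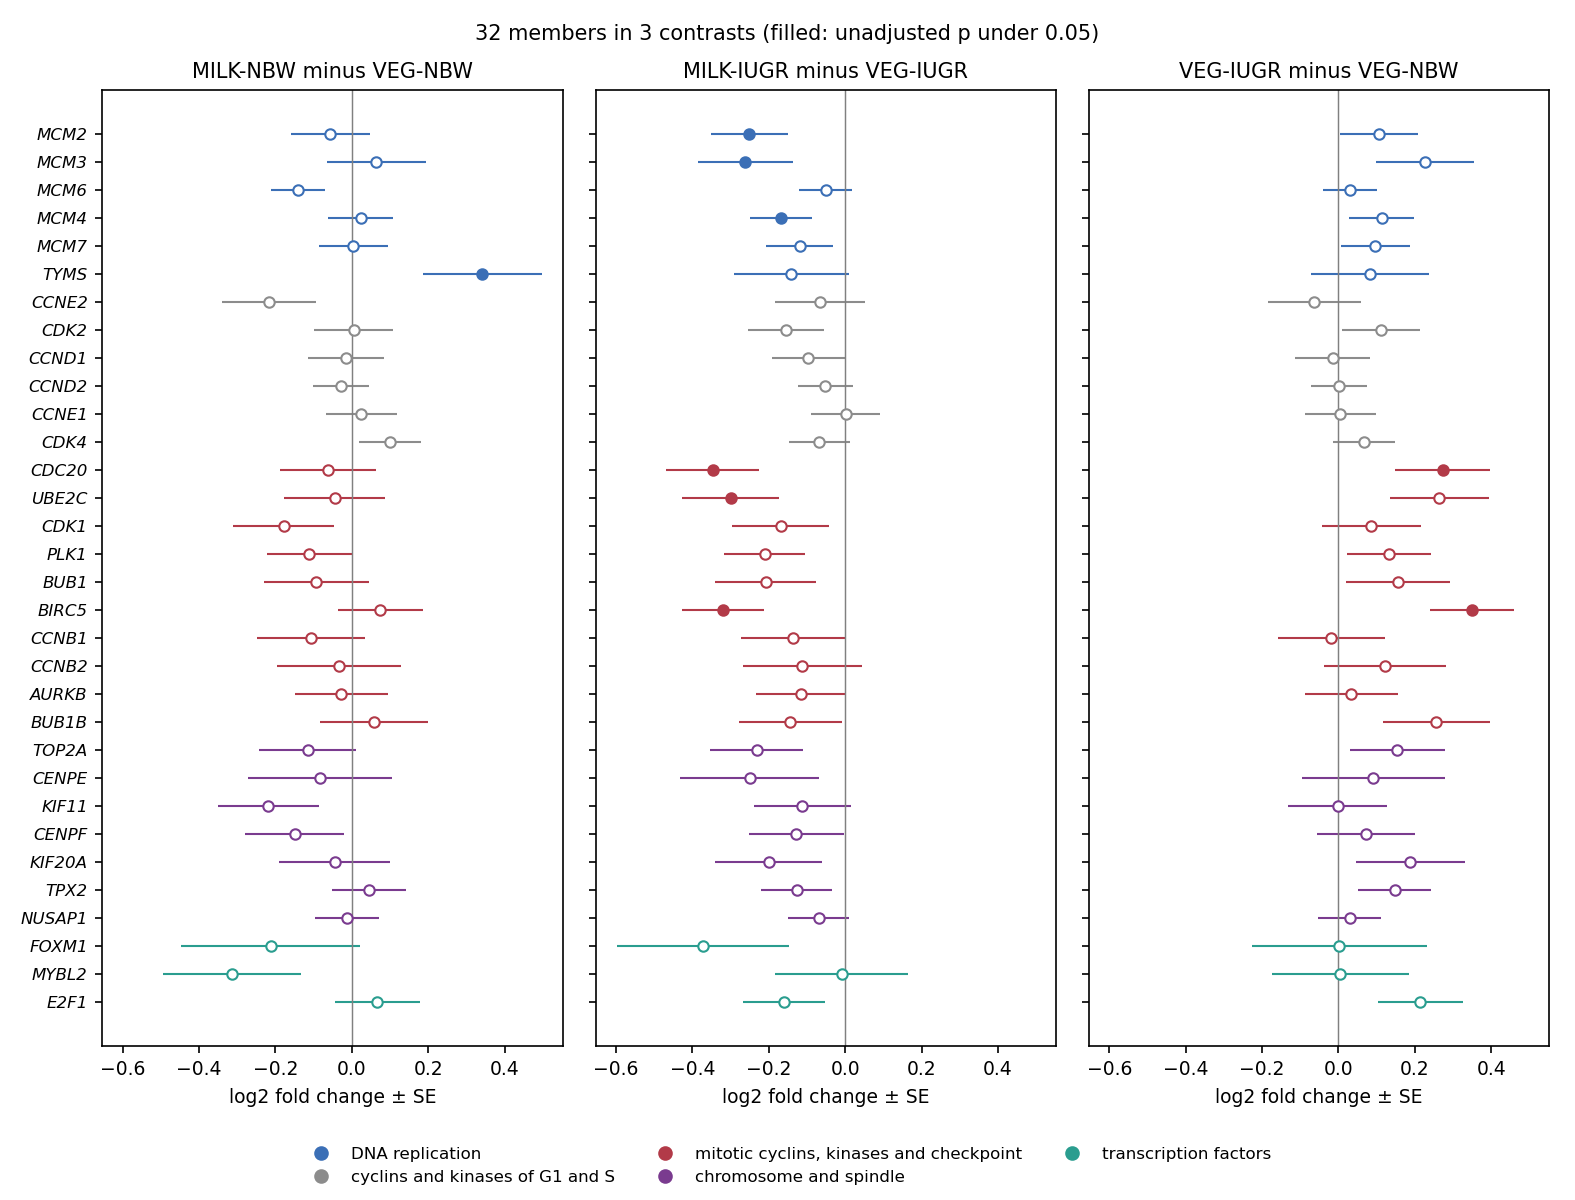
Log2 fold change ± SE of the 32 members in MILK-NBW minus VEG-NBW, MILK-IUGR minus VEG-IUGR and VEG-IUGR minus VEG-NBW, coloured by role, with filled points at an unadjusted p under 0.05. In the middle panel 31 of 32 points lie below 0, and none of the points in any panel was called at an adjusted p under 0.05; the middle and right panels share the VEG-IUGR piglets.

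Whether the effect of diet differed between the birth weights was tested as an interaction. Of the members, 26 of 32 had an interaction below 0 (a more negative MILK difference in IUGR), where 50.4% of all genes had, with a median of -0.12 against -0.0017. With all 36 libraries 11 of 32 were below 0, where 31.4% of all genes were, and the median turned to 0.047 against 0.14 over all genes. BIRC5 at -0.39 (SE 0.16, edgeR adjusted p = 0.784) and TYMS at -0.48 (SE 0.22, edgeR adjusted p = 0.784) passed unadjusted, where 6.09% of all genes passed and 2.46% passed as negative. MCM3 had -0.33 (SE 0.18). None was called (0% of all genes), so the larger MILK difference in IUGR piglets was not shown to differ from that in NBW piglets. Of the companions, CKAP2L had -0.51 (SE 0.21), POLD1 -0.29 (SE 0.13) and PRIM2 -0.25 (SE 0.12), each with an adjusted p of 0.784 from edgeR.

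For birth weight, IUGR minus NBW over both diets, 9 of 32 members were below 0, where 50.4% of all genes were, and the median was 0.056. No member reached an unadjusted p of 0.05, where 2.19% of all genes did, and none was called by edgeR (0% of all genes). The members with the smallest p were BIRC5 at 0.15 (SE 0.084), BUB1B, a spindle checkpoint kinase, at 0.15 (SE 0.098) and MCM6 at 0.077 (SE 0.050). TOP2A had 0.096 (SE 0.087), CDK1 0.091 (SE 0.090), CCND1 -0.056 (SE 0.068) and CCND2 -0.0099 (SE 0.051). Of the companions, SMC4 at 0.13 (SE 0.064, edgeR adjusted p = 1.0), GMNN at 0.12 (SE 0.057) and PRIM1 at 0.10 (SE 0.053) came first.

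Birth weight was then compared within each diet. In VEG-IUGR against VEG-NBW, 4 of 32 members were below 0 and 28 above, where 50% of all genes were below, with a median of 0.094. This contrast shares the VEG-IUGR piglets with that of MILK-IUGR against VEG-IUGR, so the opposite signs of both are not independent. BIRC5, at 10.45 to 17.1 CPM with a median of 14.8 in VEG-NBW, had 0.35 (SE 0.11, edgeR adjusted p = 1.0), and CDC20 had 0.27 (SE 0.12, edgeR adjusted p = 1.0). These 2 members passed unadjusted and both were higher, where 2.29% of all genes passed and 0.964% passed as higher, and none was called (0% of all genes). UBE2C had 0.26 (SE 0.13), TOP2A 0.15 (SE 0.12) and CDK1 0.086 (SE 0.13). Of the companions, CKAP2L had 0.34 (SE 0.15), MCM10 0.34 (SE 0.16) and GINS3 0.23 (SE 0.12), and 28 of 30 other mitotic genes were higher with a median of 0.11. The nominal count was 8 without VEG-NBW piglet 222, with a median of 0.16, and the median was 0.060 without VEG-IUGR piglet 211. The members below 0 were 1 without 222, 7 without 200 or 223, 8 without 215, 9 without 211 and 10 without 216, and 3 to 6 without any other library. The nominal count was 1 without piglet 200, 201, 211, 215, 216, 223, 228 or 229, 4 without 207 or 209 and 5 without 203 or 205.

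In MILK-IUGR against MILK-NBW, 19 of 32 members were below 0, where 51.6% of all genes were, with a median of -0.021. TYMS at -0.40 (SE 0.15, edgeR adjusted p = 0.771) was the 1 member at an unadjusted p under 0.05, where 6.24% of all genes passed, and none was called (0% of all genes). MYBL2, a transcription factor of dividing cells, had 0.31 (SE 0.18) and MCM6 0.12 (SE 0.070). Of the companions, GMNN, which keeps origins from firing again, had 0.21 (SE 0.078), RFC5 -0.19 (SE 0.083) and CDT1 -0.27 (SE 0.13).

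For sex, males minus females, edgeR called 25 genes (0.163% of all genes) and none of the members. No member reached an unadjusted p of 0.05, where 2.94% of all genes did. Of the members, 10 of 32 were lower in males, where 44.5% of all genes were, with a median of 0.014. BIRC5 at 0.099 (SE 0.078), CENPE at 0.14 (SE 0.13) and UBE2C at -0.077 (SE 0.092) had the smallest p. Of the companions, CDKN2A had -0.51 (SE 0.22), CDKN1B -0.073 (SE 0.036) and ECT2 0.12 (SE 0.059), each at an adjusted p of 1.0 from edgeR.

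With all 36 libraries, fewer members and fewer of all genes lay below 0 for diet and in MILK-IUGR against VEG-IUGR. In VEG-IUGR against VEG-NBW more of both did. In this setting 15 of 32 members were below 0 in MILK-IUGR against VEG-IUGR, where 27.1% of all genes were, and their median was 0.0098 while that of all genes was 0.13, so that the members stood 0.12 lower than all genes. For diet, 21 of 32 members were below 0, where 37.1% of all genes were, none passed unadjusted, and the median was -0.058. In VEG-IUGR against VEG-NBW, 18 of 32 were below 0, where 71.4% of all genes were, with a median of -0.0100 against -0.12. BIRC5, which had 129 counts in piglet 210, kept similar values over 36 libraries, at -0.30 (SE 0.12) for MILK-IUGR against VEG-IUGR and 0.35 (SE 0.12) for VEG-IUGR against VEG-NBW, with edgeR adjusted p-values of 0.449 and 0.397. TOP2A, with 0 counts in that library, had -0.056 (SE 0.38) and 0.046 (SE 0.38).

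Many of the members went up and down together between piglets, while the G1 and S genes did so less among themselves. Over the 33 libraries the 496 pairs of members had a median Pearson r of 0.48, with 230 pairs above 0.5 and 28 below 0, as a description. The median was 0.75 for the 21 pairs of chromosome and spindle genes, 0.57 for the 45 pairs of mitotic cyclins, kinases and checkpoint genes, 0.41 for the 15 pairs of replication genes and 0.14 for the 15 pairs of G1 and S genes. TOP2A was closest to the mean of the others at r = 0.92, followed by the kinesin KIF20A at 0.89, CDC20 and the spindle protein TPX2 at 0.87 and UBE2C at 0.85. CCNE1 at -0.0080, CCND2 at 0.21, MYBL2 at 0.21, MCM6 at 0.27 and TYMS at 0.31 stood outside the common pattern. The other G1 and S genes had 0.67 for CDK2, 0.62 for CCND1, 0.59 for CDK4 and 0.49 for CCNE2. The points share library depth and scaling, which were not separated. No r for pairs of other genes is given here, so these values are not shown to be particular to the members. Because many members move together, the counts of members above or below 0 in each comparison are not counts of independent genes.

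**Figure D4:**
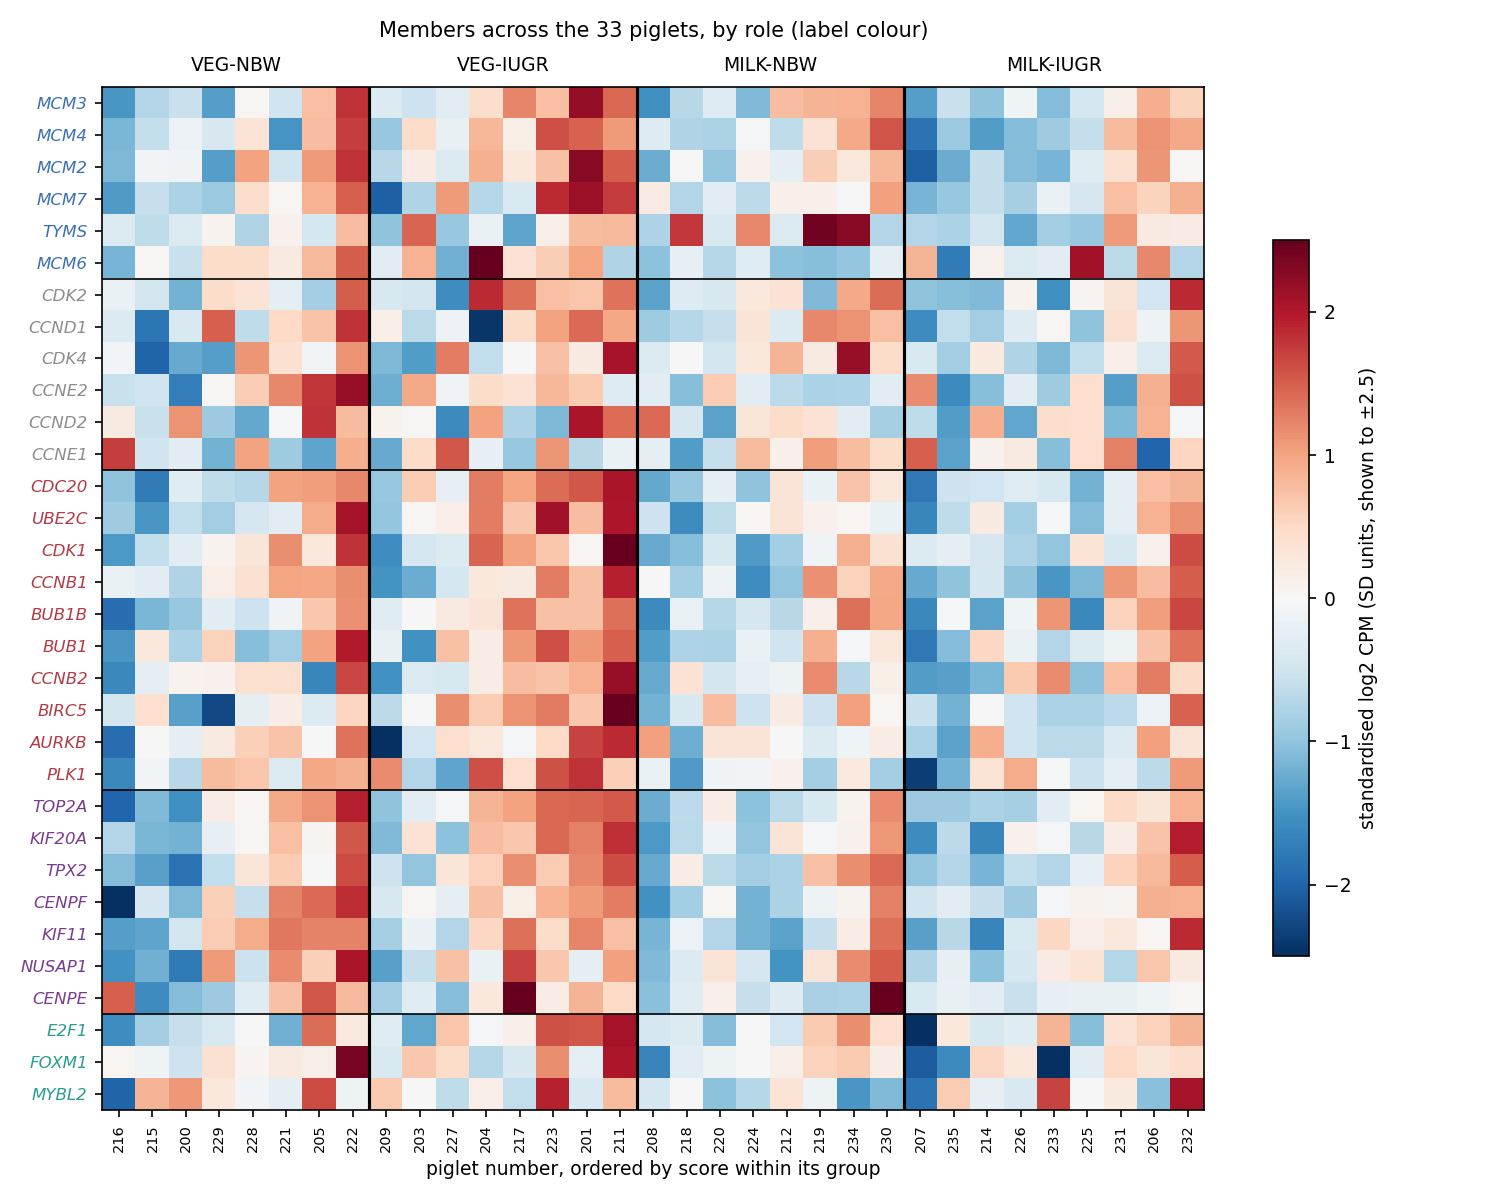
Standardised log2 CPM (SD units, colours shown to ±2.5) of the 32 members in rows, by role, and the 33 piglets in columns, ordered by score within each group. Many of the mitotic genes and MCM2, MCM3, MCM4 and MCM7 are high or low in the same columns (r of 0.81 to 0.85 with the other members for these MCM genes), while TYMS, MCM6, CCNE1, CCND2 and MYBL2 lie at 0.31 or below.

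With MKI67 not matched, TOP2A served in its place for the relations planned, a choice made after the files were seen, and 6 of 8 could be computed. TOP2A and CDK1 had r = 0.80 and rho = 0.80 (n = 33, permutation p = 1e-05 for both, the smallest that 100000 draws can give, adjusted 6e-05), and r = 0.76 without the 2 piglets farthest from the median of TOP2A. With MCM2, r was 0.69 and rho 0.68 (permutation p = 5e-05 and 7e-05, adjusted 0.00015 and 0.00021), and 0.63 without these 2 piglets. With CCND1, r was 0.56 and rho 0.59 (permutation p = 0.00079 and 0.00039, adjusted 0.00118 and 0.000765), and 0.52 without them. With CCND2, r was 0.11 and rho 0.064 (permutation p = 0.53 and 0.723, adjusted 0.636 and 0.723), and 0.089 without them. The difference between both D-type cyclins in r was not tested. Within groups of 8 or 9 piglets, r with CDK1 was 0.76 to 0.93, r with MCM2 0.45 to 0.82, r with CCND1 0.41 to 0.74 and r with CCND2 -0.70 to 0.31.

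The unassigned share had r = -0.085 and rho = -0.24 with TOP2A over the 33 libraries (permutation p = 0.642 and 0.189, adjusted 0.642 and 0.226), and -0.20 without the 2 farthest piglets. Over all 36 libraries it had r = -0.93 and rho = -0.42 (permutation p = 0.00084 and 0.0106, adjusted 0.00101 and 0.0127), and r = -0.47 without the 2 farthest. The larger value over 36 libraries came with the 3 libraries left out elsewhere.

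ATOH1, the transcription factor that defines granule cell progenitors, had r = 0.60 and rho = 0.58 with TOP2A (n = 33, permutation p = 0.0002 and 0.00051, adjusted 0.0004 and 0.000765), 0.57 without the 2 farthest piglets, 0.73 in the 16 females, 0.46 in the 17 males and 0.28 to 0.89 within the groups. Against the score of all members, given as a description, the 8 progenitor markers had r = 0.88 for MYCN, 0.68 for GLI2, 0.66 for ATOH1, 0.52 for GLI1, 0.37 for BARHL1, 0.24 for PTCH1, 0.19 for PAX6 and 0.080 for SFRP1. MYCN, itself a driver of division, overlaps in role with the members. The markers of oligodendrocytes lay between -0.29 and -0.18, those of microglia between -0.20 and -0.043, and those of oligodendrocyte precursors between -0.12 and 0.12. The 6 markers of granule neurons lay between -0.49 in GABRA6, a receptor subunit and the lowest of all markers, and 0.046 in CBLN3, with NEUROD1 at 0.0080 and ZIC1 at -0.089.

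**Figure D5:**
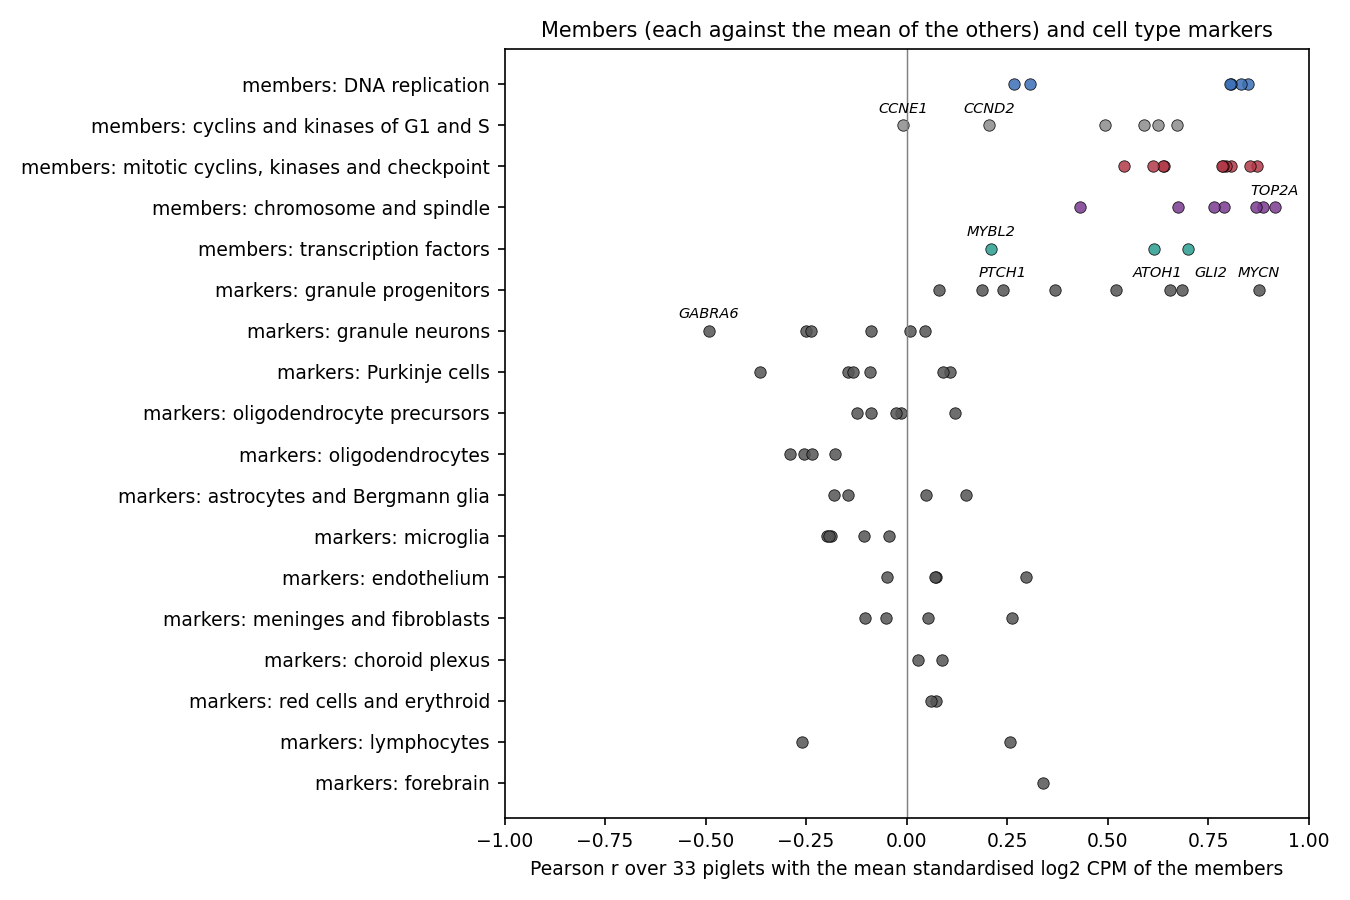
Pearson r over 33 piglets of each member with the mean of the other members (5 upper rows, by role) and of each cell type marker with the mean of all members (lower rows). The progenitor markers MYCN, GLI2 and ATOH1 lie at 0.66 to 0.88, and the rest of the progenitor markers run from 0.080 in SFRP1 to 0.52 in GLI1. Most markers of other cell types lie between -0.3 and 0.3, and GABRA6 lies at -0.49.

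The progenitor markers were also read across the groups, since in whole tissue fewer dividing cells and less RNA per cell cannot be told apart. All 8 were measured and none was at 0, and their summed level was 348 to 434 CPM in VEG-NBW, 368 to 427 in VEG-IUGR, 375 to 472 in MILK-NBW and 309 to 434 in MILK-IUGR. For diet 4 of 8 were lower in MILK, and in MILK-IUGR against VEG-IUGR 6 of 8. ATOH1 was at 6.34 to 14.5 CPM (median 7.94) in VEG-NBW, 7.70 to 12.5 (9.86) in VEG-IUGR, 4.59 to 10.9 (8.05) in MILK-NBW and 4.72 to 9.28 (7.89) in MILK-IUGR. Its difference was -0.29 (SE 0.12, edgeR adjusted p = 0.985) for diet and -0.41 (SE 0.17, edgeR adjusted p = 0.996) within IUGR, in each case with the sign of the members. PTCH1, the hedgehog receptor, had 0.0089 (SE 0.071) and GLI1, a hedgehog target, 0.093 (SE 0.10) for diet. The part of progenitor number in the members' values was not tested.

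HBB, a globin gene, had -1.09 (SE 0.34, edgeR adjusted p = 0.985) for diet and -1.61 (SE 0.47) within IUGR. Of the 4 red cell markers 3 were matched, and their summed level was low, at 4.42 to 25.2 CPM in VEG-NBW, 2.45 to 58.4 in VEG-IUGR, 3.29 to 12.4 in MILK-NBW and 1.73 to 8.79 in MILK-IUGR. Across piglets HBB had r = 0.074 with the score of the members.

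Markers of several other cell types lay on the opposite side from the members for diet, where 52% of all genes were below 0. For diet every tested marker had a log2 fold change above 0 among oligodendrocytes (4 of 4, median 0.16), their precursors (5 of 5, 0.091), astrocytes and Bergmann glia (4 of 4, 0.090), endothelium (4 of 4, 0.10) and Purkinje cells (6 of 6, 0.046), while 5 of 6 granule neuron markers were below 0 with a median of -0.041. Of these, PECAM1 of endothelium passed unadjusted, at 0.28 (SE 0.090), and none was called by edgeR. Within IUGR the markers above 0 were 3 of 4 for oligodendrocytes, 3 of 5 for precursors, 4 of 4 for astrocytes, 3 of 4 for endothelium and 4 of 6 for Purkinje cells. Of all genes, 50.5% were below 0 in that contrast. The summed oligodendrocyte level was 8138 to 29970 CPM in VEG-NBW, 9078 to 46570 in VEG-IUGR, 13760 to 30260 in MILK-NBW and 11680 to 31080 in MILK-IUGR. Signs for microglia, meninges, choroid plexus, lymphocytes and forebrain are not given here. The summed meningeal level had medians of 538.2 and 447.1 CPM in MILK-NBW and MILK-IUGR against 555.5 and 558.8 in VEG-NBW and VEG-IUGR. For microglia these were 114.1 and 117.4 against 106.8 and 113.1. The part of these cell types in the members' values was not tested.

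Genes outside the list that went most closely with the 17 mitotic members across the 33 piglets, by Pearson r as a description, were PCLAF at 0.90, ASPM at 0.88, LMNB1 at 0.87, MYCN at 0.86 and SMC4 at 0.85. Then came the gene ENSSSCG00000031023 at 0.83, CKAP2, CDCA5 and ATAD2 at 0.82, and TTK at 0.81. For diet their log2 fold changes ran from -0.18 in ATAD2 (SE 0.074, edgeR adjusted p = 0.985) and -0.17 in PCLAF (SE 0.085) to -0.047 in ENSSSCG00000031023 (SE 0.081). Having been chosen for their likeness to the mitotic members in these piglets, they add no separate evidence on diet.

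Some members varied more between piglets of 1 group than genes of their level do. The biological coefficient of variation, edgeR's estimate of spread beyond counting error, was above the trend for 14 of 32 members (43.8%), where it was above for 31.7% of all genes. It was highest against the trend in MYBL2 at 1.95 times, followed by CENPF at 1.43, TOP2A at 1.42 and CENPE at 1.38, and lowest in CCNE1 at 0.643 times. MYBL2 was at 21.99 to 58.9 CPM in VEG-NBW and 22.97 to 66.5 in MILK-IUGR. CENPE, a motor protein of the kinetochore, was at 8.81 to 10.2 CPM in MILK-IUGR, where the 9 piglets differed little, and reached 20.5 in 1 MILK-NBW piglet and 20.4 in 1 VEG-IUGR piglet. By RefSeq, the spans of 10 of the 32 members overlap another gene, PLK1, CDK1, KIF20A, MCM7 and CCND2 among them, and without a stated strand setting reads of such neighbours cannot be told apart.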

How the data were processed

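RNA of the cerebellum of 36 piglets was sequenced as paired-end reads. The authors deposited raw counts of read pairs per Ensembl gene for each piglet, not normalized, followed by counts of reads without a gene; the submitters' processing notes name Trim Galore, HISAT2, HTSeq, DESeq2 and the build Sscrofa11.1, and the annotation release and strand setting are not given in the sources used here. The rows of reads without a gene (26.73% to 64.31% of a library) were kept out of library sizes. Groups, sex and piglet numbers came from the labels. No per-piglet litter was used.

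Of 31907 identifiers, 15029 had a symbol in the name table. Positions are RefSeq spans of Sscrofa11.1. The members and lists were chosen with earlier results of these data known, and gene lengths were not at hand, so levels of different genes were not compared. Reported in detail were TOP2A, CDK1, CCND1 and CCND2, in each comparison the 3 members and 3 companions with the smallest p, and the 10 genes most like the mitotic members; any further gene was picked once its values were known.

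The tests used edgeR 4.0.16 in R 4.3.3 (TMM, filterByExpr with a minimum count of 10, quasi-likelihood F test, sex as covariate, Benjamini-Hochberg over all genes tested). Diet and birth weight came from a model without interaction, the rest from the 4 group means. Log2 CPM used a prior count of 2. Relations were tested with 100000 permutations, adjusted over 6. Alternatives were all 36 libraries, 1 further library left out, no sex, DESeq2 1.42.0 and its size factors, limma 3.58.1 voom, other filters, and refits without each library. The fits were checked on simulated data. No member sequence was at hand, and none is printed.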

Additional observations from a re-analysis of the deposited data

Results flagged for a closer look

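Within each group, the members' log2 CPM, their score and the share of unassigned reads were searched for a piglet whose gap to the next, divided by the range of the group, passed Dixon's limit (0.526 for 8 piglets, 0.493 for 9). Of 136 groups of values 9 had such a piglet, where chance gives about 1 in 20. Of the 9, 6 were values of members, which made up most of the 136, so their share was near that of chance. FOXM1 stood apart in VEG-NBW piglet 222, at a log2 CPM of 2.18 against 0.84 to 1.25 in the others, and in MILK-NBW piglet 208, at 0.32 against 0.96 to 1.39. AURKB was low in VEG-IUGR piglet 209 (2.45 against 3.08 to 3.63). CCNE2 was high in MILK-NBW piglet 220 (3.11 against 2.71 to 2.89), CENPE in MILK-NBW piglet 230 (4.36 against 2.98 to 3.41) and BIRC5 in MILK-IUGR piglet 232 (4.35 against 3.67 to 3.97). The share of reads not assigned stood apart in the 3 libraries left out, at 43.62% in VEG-NBW piglet 202 (others 26.91% to 30.48%), 64.31% in VEG-IUGR piglet 210 (27.01% to 29.04%) and 31.52% in MILK-NBW piglet 213 (26.73% to 29.09%). These 3 libraries had been chosen by the same share, so their flags add no separate evidence. The causes were not tested.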

How the results depend on the processing

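No member was called in any comparison under any of the alternatives run. The number of genes called over all genes moved from 0 in a few comparisons. It was 2 with DESeq2 and 1 with voom for MILK-NBW against VEG-NBW, and 1 for MILK-IUGR against MILK-NBW without sex, with DESeq2's size factors, with DESeq2, with voom and with at least 10 counts in every library. For sex it was 7 in place of 25 with at least 10 counts in every library. With all 36 libraries the median of the members in MILK-IUGR against VEG-IUGR was 0.010 in place of -0.14, and 4 named genes changed sign: GMNN for birth weight (-0.057), CCND1 in MILK-NBW against VEG-NBW (0.031), and UBE2C (0.058) and CDKN1B (0.013) for sex. The mean CPM moved to 100 for CCND1 in VEG-IUGR, and for CCND2 to 41.3 in VEG-NBW, 41.7 in VEG-IUGR and 37.0 in MILK-NBW. TOP2A then had r = -0.85 with CCND1, -0.69 with CCND2 and -0.93 with the share of unassigned reads. By construction these values differ only through piglets 202, 210 and 213. Of the 60 values of named genes, none changed sign in the other settings in which it was run (60 each in 5 settings, 59 with at least 10 counts in every library, 54 without sex, 32 with the 2 groups alone and 16 with the average over the other factor). Leaving out 1 library at a time, the median of the members ran from -0.14 to -0.081 for diet, from -0.20 to -0.10 for MILK-IUGR against VEG-IUGR and from 0.060 to 0.16 for VEG-IUGR against VEG-NBW. Members at an unadjusted p under 0.05 for diet were 10 with voom, 7 without MILK-IUGR piglet 232 and 0 with all 36 libraries, in place of 4. No paired analysis was possible because the labels give each piglet a number of its own and no litter. With the counts of FOXM1 at 12 to 93 per library, counting error adds to its spread.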
